A study of Zea mays with 18 samples.

Results

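The question here is where roots and shoots of the same maize inbred differ in their remaining response after iron has been given back. The 12 libraries of resupplied and iron-sufficient plants, of 18 in the series, were taken by their titles, with 3 biological replicates in each of 4 groups: resupplied roots, sufficient roots, resupplied shoots and sufficient shoots. All plants were wild-type W22, an inbred line, grown in hydroponic culture for 12 days. Sufficient plants then had iron for 3 more days and received fresh solution of the same kind. Resupplied plants had no iron for those 3 days and then received solution with 0.1 mM FeSO4-EDTA. Roots and shoots of both were collected 24 hours after the last change of solution. Deficient plants, the remaining group in each organ, stayed without iron throughout. Its 6 libraries were left out of the tests and serve as outside values. The labels do not say how many plants a replicate pooled, or whether the root and shoot library of 1 number came from the same plants, and a whole organ mixes many cell types.

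Iron is needed in leaves above all for the electron transport chains of chloroplasts and mitochondria, while roots take it up from the medium. Grasses such as maize release phytosiderophores, small iron-binding acids, and take up the iron complex they form through a dedicated transporter of the root cell membrane. After iron returns, uptake genes and leaf genes therefore need not follow the same course. Strigolactones, the hormones named in the title of the series, are made from carotenoids and act in root and shoot development. None of these genes could be singled out here, because the files give W22 identifiers without names. Of the 40690 identifiers, 0 occur in the table of names used here, which is for B73 (assembly NAM-5.0). So genes are described by level, organ and direction, and no function or sequence is given.

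The measure is a difference of differences. For each gene the log2 change of resupplied over sufficient shoots was subtracted from the log2 change of resupplied over sufficient roots, so a positive value means that the gene stood relatively higher in roots after resupply. A gene is called when edgeR's quasi-likelihood test gives a Benjamini-Hochberg adjusted p under 0.05 over all 27505 genes tested. The words rose, fell and changed refer to that test in 1 organ. Levels are given as CPM, counts scaled to a common library total, with TMM scaling, which corrects for the makeup of each library.

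The 12 libraries held 65928995 to 84318039 estimated counts each, with 26946 to 27550 genes above 0. Replicates of a group differed by 24.8 to 49.6 times the chi-square that counting noise alone gives, so no library appeared to be deposited again under another name. Organ identity could not be checked with named markers, so the signal of the other organ was summed instead. The list held the 100 most abundant of the genes at least 100 times higher in deficient shoots than in deficient roots, after adding 0.1 CPM to the roots. They held 161000 to 178000 CPM in resupplied shoots, against 223000 to 251000 CPM in sufficient shoots. In root libraries of the 2 compared groups they held 288, 210 and 250 CPM in resupplied roots, against 244, 323 and 1320 CPM in sufficient roots. Sufficient root library 3 thus stood apart, at 0.72% of the shoot level, where the other 5 lay between 0.115% and 0.176%. The reverse list of 100 root genes held 50.3 to 70.8 CPM in resupplied shoots, against 39.8, 40.7 and 120 CPM in sufficient shoots. Sufficient shoot library 3 was thus the highest, at 0.432% of the root level, where the other 5 lay between 0.143% and 0.255%. The part of that signal in the positive calls was not tested.

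**Figure D1:**
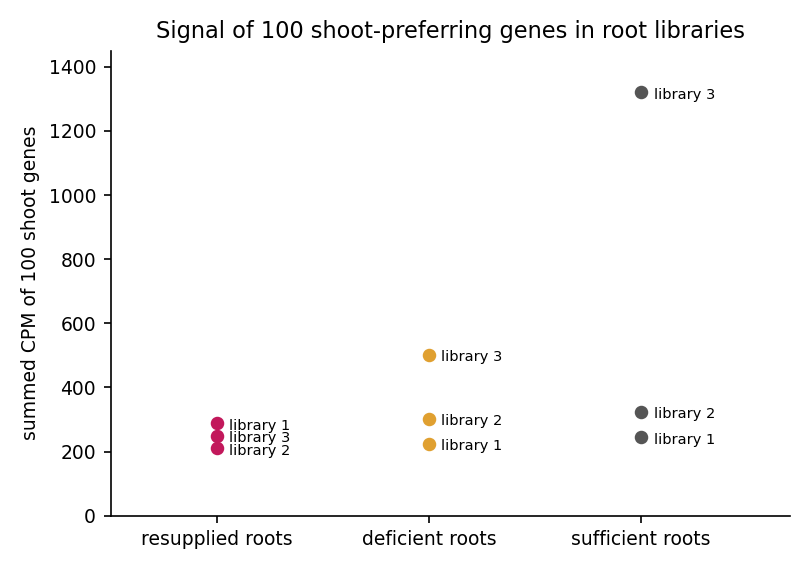
Summed CPM of 100 shoot-preferring genes (vertical axis) in each root library, by group, with the library number beside each point. Sufficient root library 3 holds 1320 CPM, and the other 5 libraries of resupplied and sufficient roots hold 210 to 323 CPM.

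The difference between organs lay mostly in 1 direction. Of 27505 genes, 314 were called, or 1.14%. In 269 of them, 0.978% of genes tested, the root change was above the shoot change, and in 45, or 0.164%, it was below. The median difference was 1.11 log2 units among the 269 and -1.32 among the 45, beside -0.02 over all genes tested, and 191 of the 314 differed by at least 2-fold. In bulk organs, fewer cells of a type and less RNA per cell cannot be told apart. The excess of positive calls depends in part on scaling. With total counts in place of TMM the median of all genes moved to -0.158, and 153 positive and 98 negative differences were called. So 39% of calls were negative, against 14.3% with TMM. Of the 269 positive calls, 153 were kept under that scaling, and all 45 negative ones were kept beside further negative calls.

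Within an organ the test called 221 genes in roots, or 0.803% of genes tested, and 844 in shoots, or 3.07%. In roots 154 rose (0.56%) and 67 fell (0.244%), and in shoots 336 rose (1.22%) and 508 fell (1.85%). With total counts in place of TMM, 1304 rose and 400 fell in shoots, so the excess of falls there depends on scaling. Rises in roots were those most often called as an organ difference: 87 of the 154, or 56.5%, with a median log2 change of 1.26 in roots and -0.06 in shoots. Of the 67 genes that fell in roots, 13, or 19.4%, were called for the difference, and their shoot changes had a median of -0.30 over all 67. Falls in shoots followed, with 152 of 508, or 29.9%, at a median of -0.67 in shoots and 0.00 in roots. Rises in shoots had the lowest share, with 27 of 336, or 8.04%. These shares are counts and were not tested against each other. The median standard error of a change was 0.17 log2 units in roots and in shoots alike, and 0.24 for the difference. For 121 of the 221 genes called in roots and 665 of the 844 called in shoots, the change was not told from that of the other organ.

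Across all genes tested, the changes in roots and in shoots were hardly related, with Pearson's r of 0.03 and Spearman's rho of 0.08. These describe genes, which are not independent replicates, and the root and shoot changes share no library. Most genes tested were called in neither organ, and the part of noise in these values was not tested. Of genes that fell in roots, 76.1% had the same sign in shoots, against 44.2% of those that rose in roots. Of genes that rose in shoots, 67.6% had the same sign in roots, against 49.8% of those that fell in shoots. The change had opposite sign in the 2 organs in 47% of genes tested. Among the 314 calls it was 272, or 86.6%. The contrast itself favours genes whose changes point apart, so that share is a description.

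**Figure D2:**
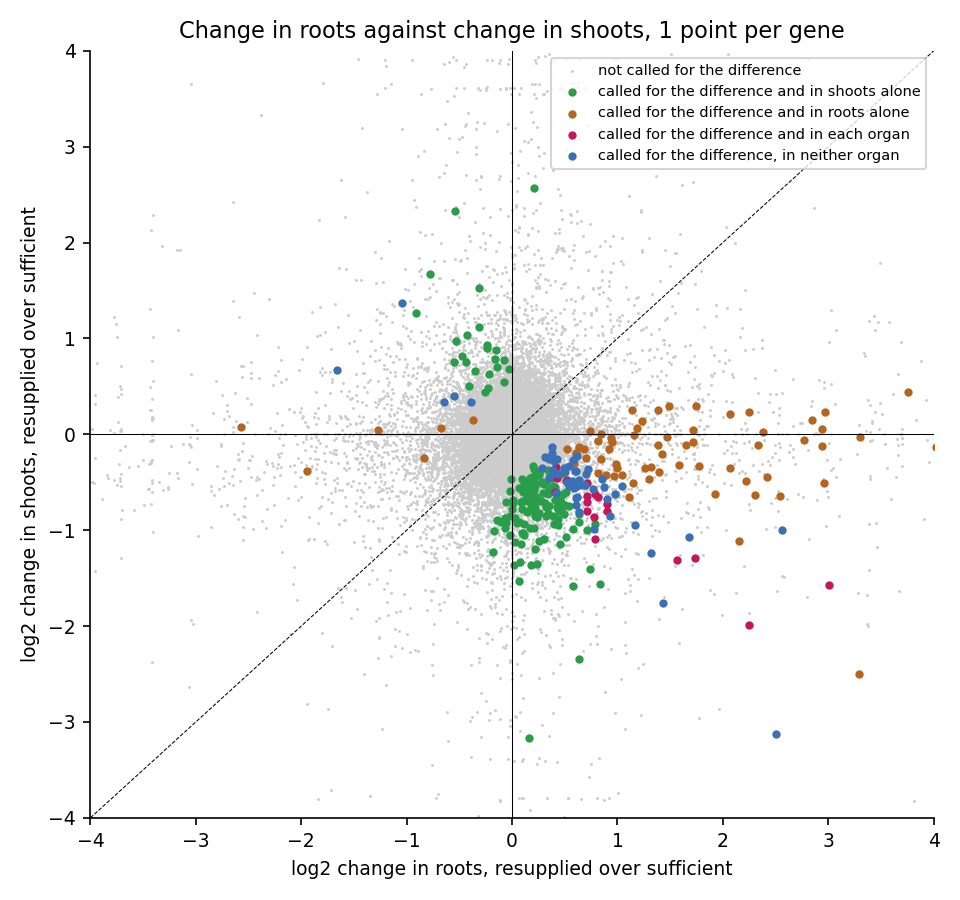
Log2 change of resupplied over sufficient roots (horizontal axis) and shoots (vertical axis), with 1 point per gene tested and the 314 genes called for the organ difference in colour. The coloured points crowd the lower right, where genes are higher in resupplied roots and lower in resupplied shoots. The dashed line marks equal change, and 649 genes, 20 of them called, lie outside the range of 4 log2 units shown.

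The clearest class rose in roots and fell in shoots. In 20 genes, 0.0727% of those tested, the difference was called together with a rise in roots and a fall in shoots. Their root changes ran from 0.41 to 3.01 log2 units with a median of 0.74, and their shoot changes from -1.98 to -0.34 with a median of -0.68. Only 4 of them changed by 2-fold or more in roots and 5 in shoots. Their levels were moderate, with a median of 31.4 CPM in resupplied roots against 18.5 CPM in sufficient roots, and 18.8 CPM in resupplied shoots against 27.1 CPM in sufficient shoots. The most abundant of them had 279 CPM in resupplied roots and 2060 CPM in resupplied shoots, against 162 CPM in sufficient roots and 3170 CPM in sufficient shoots. In all 20 the 3 resupplied and the 3 sufficient libraries did not overlap in either organ, where 15% of genes tested did not overlap in roots, 26.9% in shoots and 4.17% in both. The calls rest on the same libraries and favour groups that do not overlap. Such counts are therefore a description, here and in the classes below. All 20 stayed called for the difference in each of 12 fits that left out 1 library. The calls in the single organs were less steady, and the number of genes called in all 3 ways was 5 to 24 in those fits.

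No gene was called the other way, lower in roots and higher in shoots with a call in each organ. That count of 0 is from edgeR's quasi-likelihood test. At an unadjusted p under 0.05 in all 3 tests there were 86 such genes, against 245 that were higher in roots and lower in shoots. DESeq2 called 1 such gene and 76 of the first kind, limma voom with sample weights 0 and 26, edgeR with total-count scaling 1 and 16, and the fit without resupplied root library 1 gave 1 and 15. In these settings the calls rising in roots outnumbered the reverse. At an unadjusted p under 0.05, however, total-count scaling gave 203 genes lower in roots and higher in shoots, against 147 higher in roots and lower in shoots, so that order depends on scaling.

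**Figure D3:**
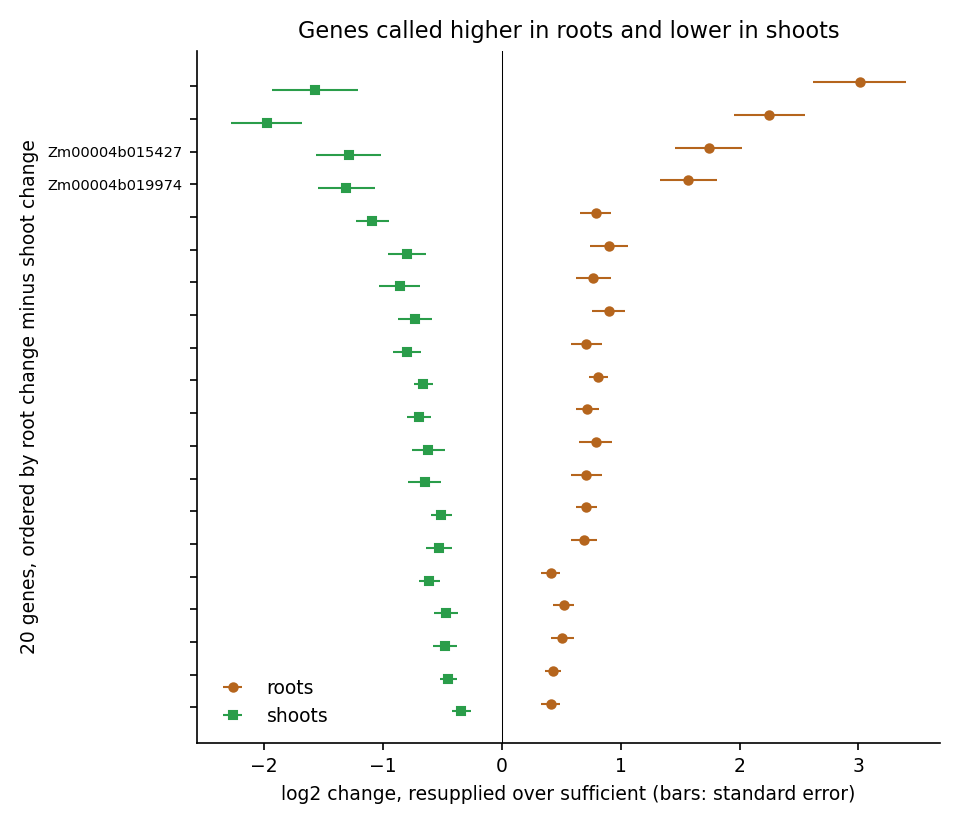
Log2 change of resupplied over sufficient plants (horizontal axis, bars showing the standard error) in roots (circles) and shoots (squares) for the 20 genes called in both organs with opposite signs, ordered by the difference. Root values lie between 0.41 and 3.01 and shoot values between -1.98 and -0.34, on opposite sides of 0 for every gene.

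Among these 20, the genes with the largest difference and at least 10 CPM in a group were Zm00004b015427 and Zm00004b019974. Zm00004b015427 had 5.51, 9.92 and 5.90 CPM in resupplied roots, against 1.65, 2.67 and 2.08 CPM in sufficient roots. In shoots it had 4.97, 4.06 and 6.54 CPM after resupply, against 15.1, 12.1 and 11.1 CPM in sufficient plants. The lowest resupplied root is above the highest sufficient root, and the highest resupplied shoot is below the lowest sufficient shoot. Its change was 1.74 ± 0.28 log2 units in roots (SE, n = 3, edgeR adjusted p = 0.013) and -1.29 ± 0.27 in shoots (adjusted p = 0.029), a difference of 3.03 ± 0.39 (adjusted p = 0.0046).

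Zm00004b019974 had 7.48, 14.3 and 8.66 CPM in resupplied roots, against 2.98, 3.53 and 3.78 CPM in sufficient roots. It had 4.92, 4.63 and 4.88 CPM in resupplied shoots, against 10.8, 9.92 and 15.2 CPM in sufficient shoots. Again the groups do not overlap in either organ, and resupply left roots and shoots in the reverse of their order in sufficient plants. The changes were 1.57 ± 0.24 log2 units in roots (SE, n = 3, edgeR adjusted p = 0.011) and -1.31 ± 0.24 in shoots (adjusted p = 0.019), with a difference of 2.88 ± 0.34 (adjusted p = 0.0029). The difference stayed called for both genes without any 1 library. The call in shoots was lost in 5 of those 12 fits for Zm00004b015427 and in 4 for Zm00004b019974.

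In deficient plants, which the contrast did not use, the 2 genes differed in where they stood. Zm00004b015427 had 9.91, 6.43 and 9.15 CPM in deficient roots and 6.97, 7.49 and 8.07 CPM in deficient shoots. Zm00004b019974 had 7.92, 4.40 and 8.11 CPM in deficient roots and 12.0, 7.90 and 10.1 CPM in deficient shoots. In shoots the first gene was therefore below sufficient plants in deficiency too, in every library, while the second overlapped them.

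**Figure D4:**
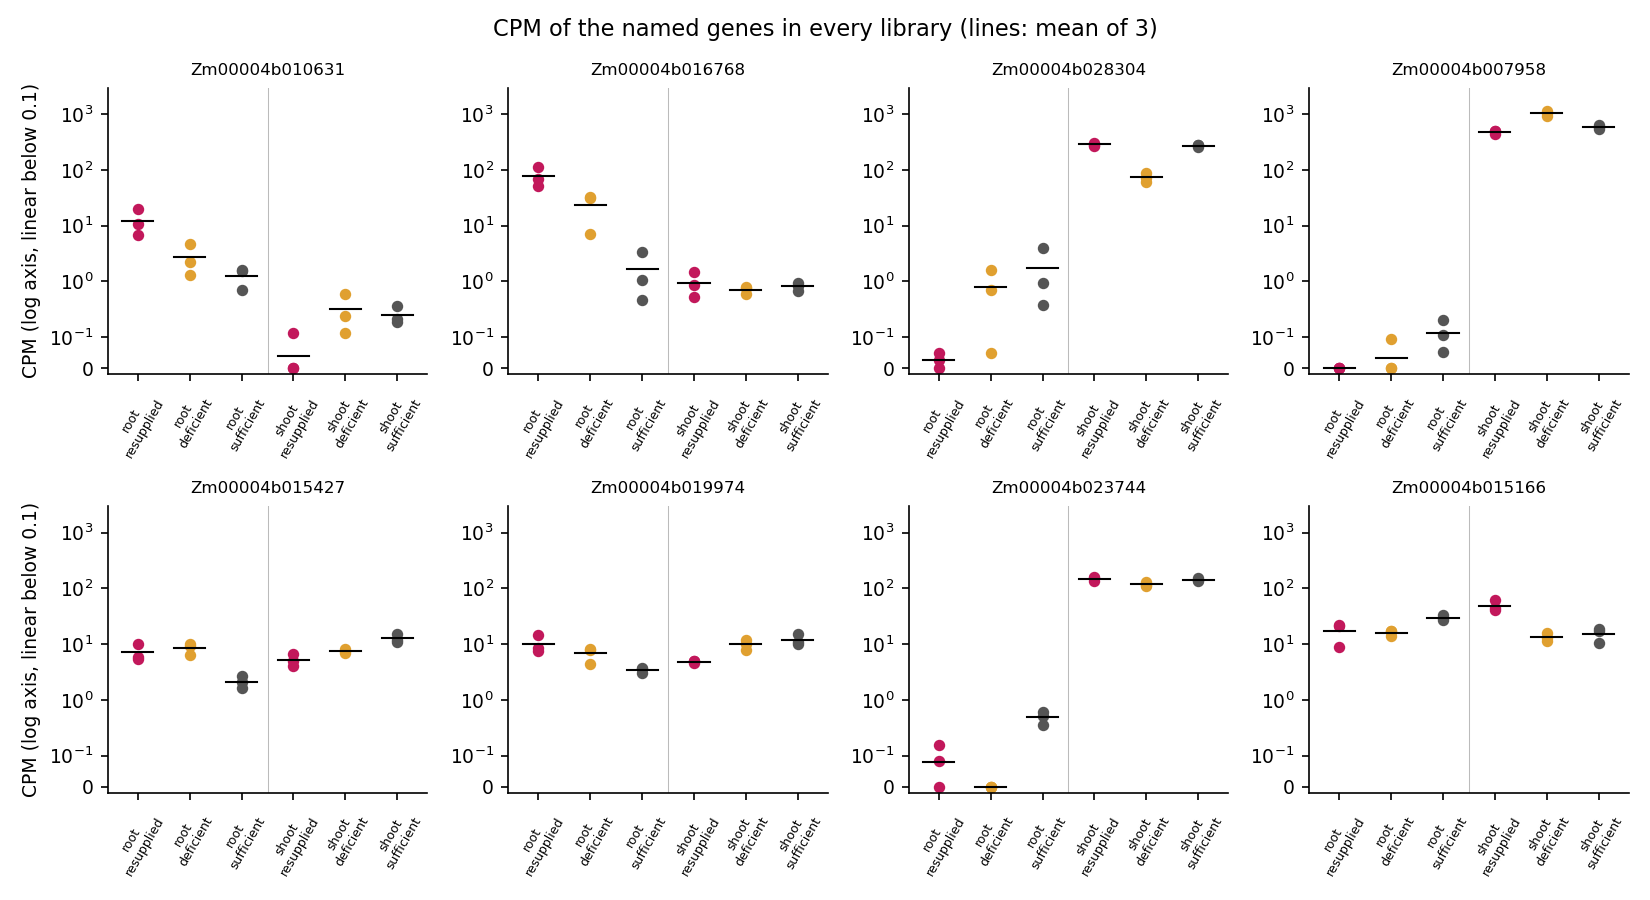
CPM of the 8 genes named in the text in each of 18 libraries, by organ and condition (log axis, linear below 0.1 CPM; lines mark the mean of 3). Zm00004b015427 and Zm00004b019974 are higher in resupplied than in sufficient roots and lower in resupplied than in sufficient shoots, while Zm00004b028304, Zm00004b007958 and Zm00004b023744 are below 4 CPM in every root library and above 60 CPM in every shoot library.

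The largest class of positive calls came from a fall in shoots. In 132 of the 269 genes, or 49.1%, the fall in shoots was called and no change was called in roots. Their median log2 change was -0.75 in shoots and 0.21 in roots, and 117 of the 132 had opposite signs. Most were expressed in both organs, although 7 of the 132 stayed under 1 CPM in both groups of an organ and 4 had a group at 0 in all 3 libraries. The level was a median of 32.5 CPM in resupplied roots against 28.8 CPM in sufficient roots, and 29.5 CPM in resupplied shoots against 49.0 CPM in sufficient shoots. All 132 had resupplied and sufficient shoots that did not overlap, and in 64 the roots did not overlap either. Over all genes tested, 26.9% did not overlap in shoots, 15% in roots and 4.17% in both. Shoot-preferring genes, with at least 8 times the CPM of the other organ in deficient plants after adding 0.1 CPM, were 8 of the 132, or 6.06%, and root-preferring ones 11, or 8.33%. Over all genes tested these shares were 7.56% and 6.76%. Without 1 library, 46 of the 132 were called in each of the 12 fits. Under total-count scaling, 70 of the 132 stayed called for the difference.

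The next class rose in roots alone. In 67 genes, 24.9% of the positive calls, the rise in roots was called and no change in shoots, with a median log2 change of 1.47 in roots and -0.15 in shoots. Their median level was 32.7 CPM in resupplied roots against 11.1 CPM in sufficient roots, and 12.7 CPM in resupplied shoots against 12.4 CPM in sufficient shoots. All 67 had root groups that did not overlap, and 26 had shoot groups that did not, beside 15% and 26.9% of genes tested. The differences were wide here: 55 of the 67 were at least 2-fold and 26 at least 4-fold, compared with 61 and 9 of the 132 genes that fell in shoots. Root-preferring genes were 7 of them, or 10.4%, and shoot-preferring ones 9, or 13.4%. In every fit without 1 library, 32 of the 67 were called.

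The largest positive differences among genes with at least 10 CPM in a group were of this class. Zm00004b016768 had 52.1, 111 and 68.4 CPM in resupplied roots, against 0.472, 3.39 and 1.06 CPM in sufficient roots. In shoots it stayed near 1 CPM, with 1.47, 0.529 and 0.845 CPM after resupply against 0.842, 0.662 and 0.934 CPM in sufficient plants. Its root change of 5.55 ± 0.61 log2 units (SE, n = 3, edgeR adjusted p = 0.0014) had no called change in shoots beside it, at 0.22 ± 0.66 (adjusted p = 0.92), and the difference was 5.33 ± 0.87 (adjusted p = 0.016). Deficient roots already held 33.2, 7.18 and 30.7 CPM, above each sufficient root and below each resupplied one. The difference was called in all 12 fits without 1 library. In the authors' deposited table for roots its log2 change is 0.42 with an adjusted p of 0.0094, whereas DESeq2 run here gave 5.56. For each gene named here the deposited root change is smaller in size than the fitted one. The reason was not tested, so the 2 sizes are not like measures.

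Zm00004b010631 had 10.7, 19.6 and 6.65 CPM in resupplied roots, against 1.59, 0.691 and 1.51 CPM in sufficient roots. In shoots it was close to the limit of detection, with 0, 0.119 and 0 CPM after resupply against 0.211, 0.185 and 0.357 CPM in sufficient plants. The groups do not overlap in either organ, but the shoot values rest on 0 to 21 estimated counts per library. Its root change was 3.29 ± 0.59 log2 units (SE, n = 3, edgeR adjusted p = 0.027) and its shoot change -2.50 ± 0.92 (adjusted p = 0.16), and the difference of 5.79 ± 1.07 (adjusted p = 0.027) was called in 6 of 12 fits without 1 library. Those fits gave 5.24 to 10.47 for the difference and -7.18 to -1.95 for the shoot change, the extremes 10.47 and -7.18 without resupplied shoot library 2. With limma voom the difference was not called (adjusted p = 0.28). In the authors' deposited tables its log2 change is 1.34 in roots, with an adjusted p of 9.9e-14, and -0.13 in shoots. DESeq2 run here gave 3.29 and -2.61.

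A further 50 positive calls had no call in either organ. All 50 had a higher estimate in roots and a lower one in shoots, with medians of 0.61 and -0.48 log2 units, and the difference between them was a median of 1.08. The level was a median of 20.7 CPM in resupplied roots against 13.7 CPM in sufficient roots, and 18.2 CPM in resupplied shoots against 24.0 CPM in sufficient shoots. In 45 of the 50 the groups did not overlap in either organ, beside 4.17% of genes tested. In each of the 12 fits without 1 library, 2 of the 50 were called. Total-count scaling kept 12 of the 50, and limma voom kept 33.

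Negative differences were fewer and of several kinds. In 27 of the 45 genes, or 60%, a rise in shoots was called and no change in roots, with a median log2 change of 0.88 in shoots and -0.31 in roots. Their median level was 16.2 CPM in resupplied roots against 18.9 CPM in sufficient roots, and 22.7 CPM in resupplied shoots against 14.7 CPM in sufficient shoots. All 27 had shoot groups that did not overlap, and 13 had root groups that did not, beside 26.9% and 15% of genes tested. Of the 27, 4 were root-preferring and 0 shoot-preferring. An example, picked after its values were seen, is Zm00004b015166, with 22.4, 8.80 and 20.9 CPM in resupplied roots against 29.6, 26.8 and 33.0 CPM in sufficient roots, and with 61.5, 40.1 and 44.0 CPM in resupplied shoots against 17.0, 10.4 and 18.5 CPM in sufficient shoots. It rose in shoots by 1.67 ± 0.32 log2 units (SE, n = 3, edgeR adjusted p = 0.021), its change of -0.78 ± 0.31 in roots was not called (adjusted p = 0.38), and the difference was -2.45 ± 0.44 (adjusted p = 0.025). The difference was called in 9 of 12 fits without 1 library, and the rise in shoots was lost in 3 of them. Without resupplied root library 2 the root change was -0.46. Deficient shoots, with 15.7, 12.9 and 11.3 CPM, stayed at the level of sufficient shoots.

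Negative calls that came from a fall in roots were mostly shoot genes at trace levels there. In 13 negative calls a fall in roots was called and no change in shoots, and 9 of these were shoot-preferring, 69.2% against 7.56% of genes tested. In roots these 9 had group means of 0 to 1.77 CPM after resupply, against 0.0836 to 2.81 CPM in sufficient plants, while sufficient shoots held 1.10 to 579 CPM. Summed over the 9 genes, the root libraries held 1.90, 1.91 and 2.41 CPM after resupply, against 5.24, 6.42 and 9.45 CPM in sufficient plants. Sufficient root library 3, which held the most signal of shoot genes, was the highest sufficient root for 5 of the 9. The part of that signal in these calls was not tested. Without that library 8 of the 9 were still called, while 1 of all 13 was called in each of the 12 fits without 1 library.

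Among negative calls with at least 10 CPM in a group, the largest differences were in Zm00004b028304 and Zm00004b007958, both of this kind. Larger ones, down to -9.74 log2 units, were in genes under that level with a group at 0 in all 3 libraries. Their size depends on the prior count of the fit and is no bound. Zm00004b028304 had 0, 0.0271 and 0.0479 CPM in resupplied roots, against 0.372, 0.933 and 3.96 CPM in sufficient roots. In shoots it had 278, 308 and 273 CPM after resupply, against 276, 254 and 284 CPM in sufficient plants. The shoot groups overlap, and the highest root value is that of sufficient library 3. The difference was -6.13 ± 1.24 log2 units (SE, n = 3, edgeR adjusted p = 0.04), with -6.05 ± 1.08 in roots (adjusted p = 0.026) and 0.08 ± 0.47 in shoots (adjusted p = 0.97), and it was called in 3 of 12 fits without 1 library. Without sufficient root library 3 it was -4.72 (adjusted p = 0.0064). It was not called by limma voom (adjusted p = 0.19) or by edgeR's robust fit (adjusted p = 0.084). Deficient shoots held 60.6, 88.8 and 71.1 CPM, well below both other groups.

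Zm00004b007958 had 0 counts in all 3 resupplied roots, against 0.199, 0.109 and 0.0516 CPM in sufficient roots, which are 16, 9 and 4 estimated counts. The lowest of these is that of sufficient library 3. With a floor of 3 counts per library, its mean in resupplied roots was at least 3.23-fold lower. The fitted difference of -5.88 ± 1.03 log2 units (SE, n = 3, edgeR adjusted p = 0.031) depends on the prior count and is no bound. In shoots it held 506, 495 and 431 CPM after resupply, against 628, 578 and 531 CPM in sufficient plants, a change of -0.28 ± 0.17 that was not called (adjusted p = 0.41). The call for the difference was kept in 2 of 12 fits without 1 library. It was lost with limma voom (adjusted p = 0.3), with all 18 libraries in edgeR's fit (adjusted p = 0.062) and with counts divided by 4, where the difference was -3.89 (adjusted p = 0.13).

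Zm00004b023744, named with Zm00004b028304 as the reverse of the opposite movers because no gene was called that way in each organ, had 0.0812, 0 and 0.156 CPM in resupplied roots against 0.596, 0.521 and 0.361 CPM in sufficient roots. In shoots it had 159, 135 and 155 CPM after resupply, against 133, 142 and 152 CPM in sufficient plants. The shoot groups overlap, and the root groups do not. Its lowest sufficient root value is that of library 3. Its difference was -2.65 ± 0.49 log2 units (SE, n = 3, edgeR adjusted p = 0.029) and was called in 4 of 12 fits without 1 library, and not by limma voom (adjusted p = 0.21). Its estimates point apart only because the shoot change is 0.08 ± 0.20 (adjusted p = 0.9). All 3 deficient roots held 0 counts.

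Genes changed in the same direction in both organs form a contrast to these classes. With a call in each organ, 3 genes rose in both and 15 fell in both, together 0.0654% of genes tested. The 3 rose by a median of 1.5 log2 units in roots and 1.57 in shoots, and the 15 fell by a median of 0.78 and 0.89. None of the 18 was called for the organ difference, whose estimates lay between -0.67 and 0.66 and whose lowest adjusted p was 0.26. A p that misses the threshold does not show equal change.

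The deficient libraries show where each class stood in plants that got no iron back. The comparison of deficient with sufficient plants uses the same sufficient libraries, so its values are set beside the others and support nothing. The classes were also chosen by calls on the resupplied libraries, which by itself sets these farther from sufficient plants than the deficient ones in the organ of the call. For the 132 genes that fell in shoots, the median log2 distance from the sufficient mean in shoots was -0.67, -0.67 and -0.75 in the resupplied libraries and -0.15, -0.25 and -0.17 in the deficient ones. In roots the same genes stood at 0.21, 0.25 and 0.22 after resupply and at 0.33, 0.27 and 0.20 in deficiency.

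For the 67 genes that rose in roots, the median distance in roots was 1.25, 1.41 and 1.23 log2 units in resupplied libraries and 0.71, 0.16 and 0.62 in deficient ones. Deficient root library 2 was the lowest of these. In shoots the distances were -0.12, -0.14 and -0.25 after resupply and -0.05, -0.11 and -0.01 in deficiency. The 20 opposite movers stood at 0.72, 0.71 and 0.72 in resupplied roots and 0.56, 0.35 and 0.58 in deficient roots, and at -0.61, -0.72 and -0.72 in resupplied shoots and -0.16, -0.27 and -0.31 in deficient shoots. Over all genes tested the medians lay between -0.01 and 0.01 in every library.

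**Figure D5:**
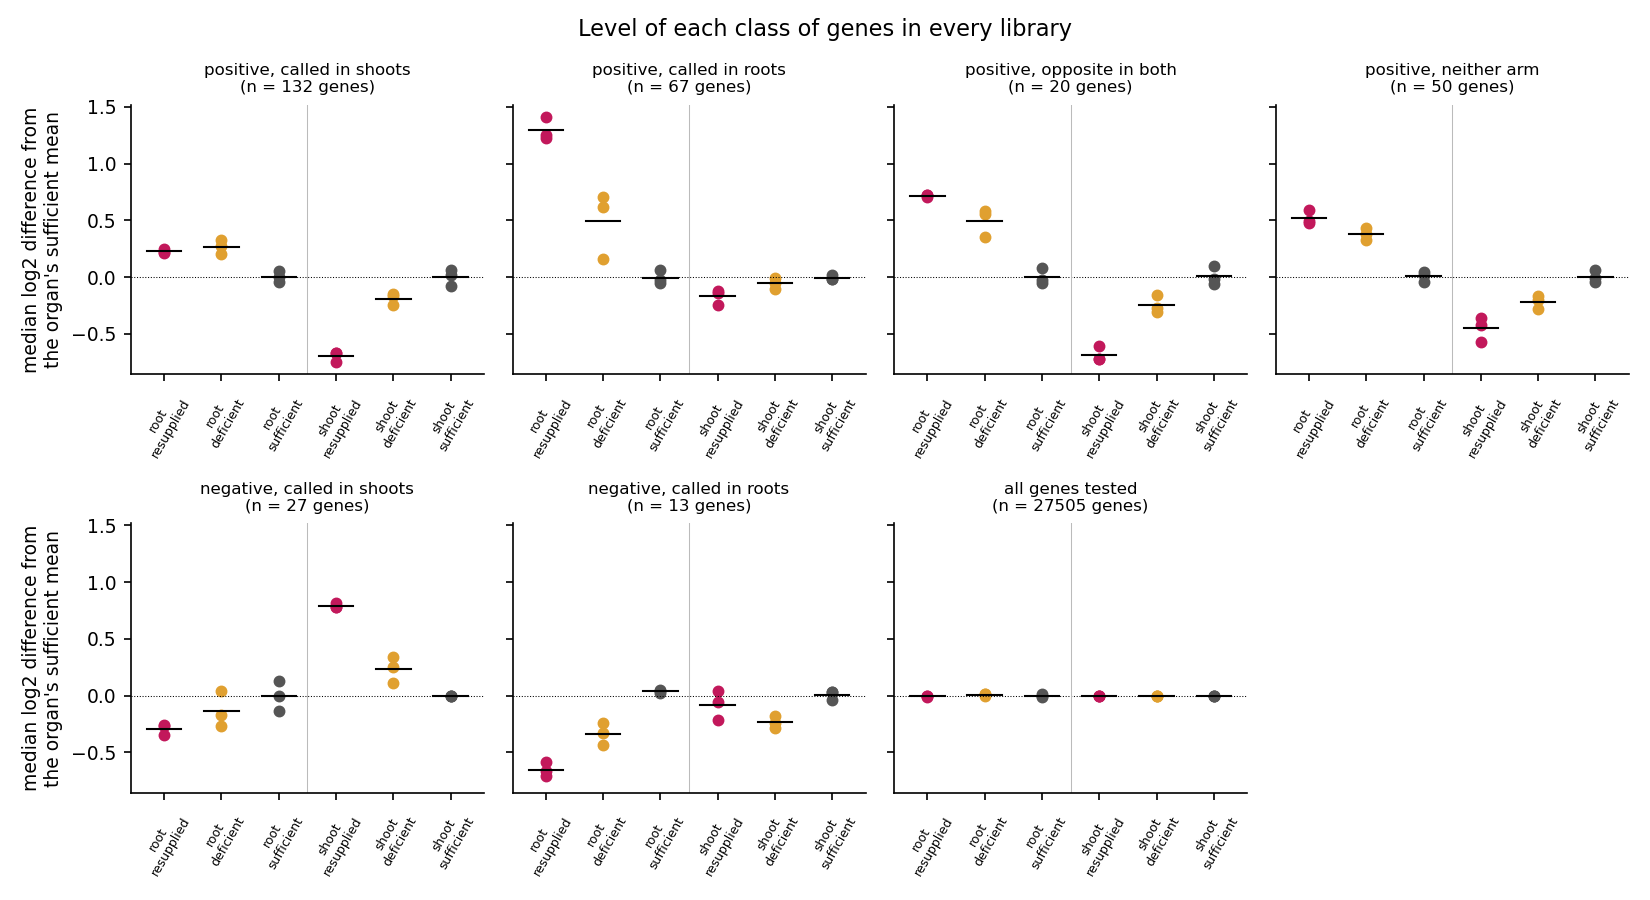
Median log2 distance of each class of genes from the organ's sufficient mean (vertical axis), with 1 point per library, lines for the mean of 3 libraries, and "positive" or "negative" for the sign of root change minus shoot change. The 132 genes that fell in shoots sit at -0.67 to -0.75 in resupplied shoots and -0.15 to -0.25 in deficient shoots, and the panel of all genes tested stays within 0.01 of 0.

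By level, the calls were spread over the range of expression but thin at its low end. Averaged over deficient roots and shoots, 0.238% of 3356 genes under 1 CPM were called for the difference, 0.653% of 8113 genes at 1 to 10 CPM, 1.54% of 14196 at 10 to 100 CPM and 1.84% of 1791 at 100 to 1000 CPM. The median standard error of the difference fell along the same classes, at 1.60, 0.40, 0.17 and 0.15 log2 units, so low genes needed larger differences. Of the 314 calls, 33 stayed under 1 CPM in both groups of an organ, against 22.3% of genes tested. A group was at 0 in all 3 libraries for 5 of the 269 positive and 8 of the 45 negative calls. With those genes held at their floor the medians were 1.11 and -1.30.

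The most abundant shoot genes took a smaller share of counts in resupplied shoots. The 100 genes with the highest CPM in deficient shoots held 18.9%, 18.6% and 17.8% of counts in resupplied shoots, against 23.1%, 22% and 22.2% in sufficient shoots, and 4.94%, 4.87% and 4.85% in resupplied roots, against 4.81%, 4.69% and 5.46% in sufficient roots. The shoot groups do not overlap and the root groups do. By gene, 85 of the 100 had a lower estimate in resupplied shoots, with a median of -0.38 log2 units, and 5 of these falls were called, beside 1.85% of genes tested. In roots 70 had a lower estimate, with a median of -0.50, but without sufficient root library 3 this median was -0.12, with 58 lower. The difference was called for 1 gene in each direction with all libraries, where 1.14% of genes tested were called, and for 8 positive and 3 negative without that library. The fit without it called 311 positive and 65 negative among 27884 genes tested.

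In the authors' deposited tables, which rest on the same libraries and are no independent check, all 20 opposite movers had an adjusted p under 0.05 in both organs with a rise in roots and a fall in shoots. Of the 314 genes called here, those tables call 71 in both organs with opposite signs, 69 of them higher in roots and lower in shoots. Over all genes tested they call 77 that way and 6 the other way. The authors' deposited table gives Zm00004b015427 a log2 change of 0.92 in roots and -0.99 in shoots, and Zm00004b019974 0.88 and -1.11. Each of these is smaller in size than the change fitted here.

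The number of calls rests on few libraries. It was 195 without sufficient root library 2, 157 without resupplied root library 2, and 161 or 188 when sufficient shoot library 1 or 3 was dropped. Dropping resupplied shoot library 1, 2 or 3 left 197, 158 or 142. Positive calls outnumbered negative ones in all 12 such fits. The negative share was 8.28% to 25.7%, the highest without sufficient root library 1, which left 162 positive and 56 negative calls. In all, 107 of the 314 genes were called in all 12 fits.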

How the data were processed

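RNA-seq of maize W22 roots and shoots was used. Estimated counts by gene were deposited in a file per library. HISAT2 and StringTie, with Trim Galore and DESeq2, are listed in the submitters' processing notes with no version. Build and annotation: not given in the sources used here. All values were whole as deposited, so rounding changed none. Low counts (4 to 40) were multiples of 4 in 34.3 to 38% of cases, where 27% of those numbers are, so 1 fragment may add several counts and totals may overstate depth. Of the authors' deposited DESeq2 tables, 2 were used, only for values credited to them. Per the file headers they hold a base mean (a normalised signal), a log2 fold change, its standard error and Wald score, and p-values before and after adjustment. The fold direction was taken from the file names.

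The 12 libraries entered a fit by edgeR 4.0.16, under R 4.3.3 (quasi-likelihood F-test, TMM, filterByExpr, group as the only term, n = 3 per group), with root change minus shoot change as the contrast. Standard errors were derived from F, and printed CPM use TMM over all 18 libraries. DESeq2 1.42.0 and limma 3.58.1 were alternatives. Pooled over genes, replicates differed by more than counting noise alone gives. The part of counting noise in genes at trace levels was not tested. The steps were run on simulated data, with changes set only in resupplied roots and in genes with at least 1 CPM in each organ. That run set no change at trace levels or in shoots, and no result here rests on it. Genes were named by rule: among calls with at least 10 CPM in a group, the 2 largest differences of each sign, and likewise 2 of each direction among genes called in each organ with opposite signs, filled from opposite estimates where none was called. The comparison, classes and rules were chosen with earlier results of these data known, and the organ-preference, most-abundant and level classes were set on the data. Planned lists of named genes and organ markers could not be used, since no identifier had a name.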

Additional observations from a re-analysis of the deposited data

Results flagged for a closer look

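The same comparison, resupplied against sufficient plants, came out differently in roots and shoots for 314 genes by the test of the difference itself. Of the genes named, the root change minus the shoot change was 5.79 log2 units for Zm00004b010631, 5.33 for Zm00004b016768, 3.03 for Zm00004b015427 and 2.88 for Zm00004b019974. It was -6.13 for Zm00004b028304, -5.88 for Zm00004b007958 and -2.65 for Zm00004b023744. The first 4 are cases of genes present at 10 CPM or more in a root or shoot group whose level changed there. For Zm00004b010631, however, the shoot part of the difference, -2.50 (edgeR adjusted p = 0.16), rests on 0 to 21 estimated counts per library. Its difference was called in 6 of 12 fits without 1 library. The last 3 rest on root levels under 4 CPM in every library, and the part that trace amounts of shoot RNA in root libraries play in them was not tested. Groups of 3 are too small for a search for outlying samples.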

How the results depend on the processing

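The 8 named genes kept the sign of their difference in each fit that tested them. With at least 1 CPM in each organ, Zm00004b010631, Zm00004b016768, Zm00004b007958 and Zm00004b023744 were not tested. Calls lost with voom, the robust fit, 18 libraries or counts divided by 4 stand beside 4 of these genes, and Zm00004b010631 was also lost with counts divided by 4 (edgeR adjusted p = 0.05 after rounding). DESeq2 called 1203 genes for the difference, including all 314, with 993 of opposite sign and 77 also called in each organ, and called 744 genes in roots and 2381 in shoots. With limma voom these were 366 and 2279, and 244 of the 314 were kept. Shoot calls numbered 1704 with total counts, 1300 with 18 libraries and 1746 with each organ fitted alone. The share of calls also called in shoots alone was 58.8% with at least 1 CPM in each organ, 56.6% with DESeq2 and 61.1% with voom, against 50.6%. Pearson's r was 0.02 without a filter and with 18 libraries, and 0.05 with 1 CPM, DESeq2 and counts divided by 4, and rho was 0.10 with 1 CPM. Without 1 library, calls ran from 142 to 376 for the difference, 123 to 325 with opposite signs, 5 to 24 in each organ with opposite signs, 121 to 245 in roots and 148 to 985 in shoots, shares from 37.3% to 57.9% for shoots and 24.6% to 38.1% for roots, r from 0.01 to 0.04 and rho from 0.03 to 0.10. The cause was not tested.

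Same-numbered libraries did not deviate together: correlations across 18 pairs ran from -0.11 to 0.12, and 2 of 12 libraries correlated best with their own number. With the number as a replicate block there were 164 calls, 147 of opposite sign, 13 in each organ, 138 in roots and 489 in shoots. With the number within condition as a replicate block there were 39, 36, 0, 4 and 0. The shares were 0% for shoots and 5.13% for roots, r was 0.45 and rho 0.30. These blocks lie within conditions, so the change within an organ is set at replicate 1 and both organs share the block terms. Of these values, only the 39 calls for the difference can be set beside the main fit. The number alone ended the call of Zm00004b010631, Zm00004b028304, Zm00004b007958 and Zm00004b023744, and the number within condition that of each named gene but Zm00004b019974 and Zm00004b015166. The labels do not say whether a number marks shared plants. Preference at 4 times the other organ gave 53 root-preferring and 63 shoot-preferring calls, and 1 CPM as pseudocount 20 and 31, against 30 and 37.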

Other observations

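Some calls had adjacent identifier numbers. The 314 called genes had 447 tested genes with an identifier number directly above or below theirs, and 11 of these, or 2.46%, were called too, against 1.14% of genes tested. All 6 pairs of calls with consecutive numbers had the same direction, among calls of which 269 of 314 were positive. The sources do not say whether these numbers follow position on the chromosomes, and this pattern was noticed in the data and has no test.

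Shoot-preferring genes as a whole, 2079 of those tested, had a median log2 change of -0.08 in roots and -0.16 in shoots, and the root value was 0.00 without sufficient root library 3. The 1859 root-preferring genes had medians of 0.04 in roots and 0.00 in shoots.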
